A study of Homo sapiens with 18 samples.

Results

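OCI-AML3 and OCI-AML2, 2 human acute myeloid leukaemia cell lines, were compared while both were under OTX015, an inhibitor of the BET bromodomain proteins. The comparison took the 3 CAGE libraries of OCI-AML3 with OTX015 and the 3 libraries of OCI-AML2 with OTX015, 6 of the 18 libraries of the series, over genes, promoters and enhancers. The question was which differences between the lines were still present, and which were newly present, when both lines received the drug. The 6 groups, of 3 libraries each, were OCI-AML3 with OTX015, OCI-AML2 with OTX015, OCI-AML3 with vehicle (DMSO), OCI-AML2 with vehicle, OCI-AML3 with JQ1 and OCI-AML2 with JQ1. Dose and exposure time were not given in the sources used here. OCI-AML3 carries the cytoplasmic form of nucleophosmin, NPM1c, and OCI-AML2 has wild-type NPM1, so each genotype was represented by a single line, and a difference between the lines cannot be told apart from a difference between the genotypes. The labels do not say that the 3 libraries of a group came from separate cultures, so the p-values measure the spread between these libraries, which may be technical.

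BET proteins, which include BRD2 and BRD3, read acetylated lysines on histones and help RNA polymerase II leave promoters and copy genes that depend on dense enhancers. OTX015 (birabresib) and JQ1 occupy the acetyl-lysine pocket of the bromodomains, and in leukaemia cells MYC is the best-known gene that falls when they do. CAGE (cap analysis of gene expression) sequences the first bases of capped RNA, so each tag marks a transcription start, and short bidirectional capped RNAs mark active enhancers. NPM1-mutant leukaemia is known for high HOXA, HOXB and MEIS1 transcription.

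The OCI-AML3 libraries with OTX015 held 800633, 777939 and 303883 tags in genes, and the OCI-AML2 libraries with OTX015 held 930081, 1215251 and 452667. A count of 0 allowed up to 3.28, 3.29 and 6.46 CPM (tags scaled to a common library size with trimmed-mean-of-M-values factors, TMM) in the OCI-AML3 libraries, against up to 3.50, 2.90 and 6.32 CPM in the OCI-AML2 libraries, counting error only. The libraries with number 3 stood apart in both lines and had the fewest tags. In OCI-AML3 with OTX015 the correlation of log2 CPM across genes was 0.958 between libraries 1 and 2 and 0.870 and 0.871 with library 3, against 0.961, 0.923 and 0.922 in OCI-AML2 with OTX015. MALAT1, a nuclear long non-coding RNA, took 6.32 to 6.75% of the gene tags in OCI-AML3 with OTX015, against 2.08 to 3.16% in OCI-AML2 with OTX015, and its part in the results was not tested. Of 9 myeloid markers 8 were in the table, and their summed level was 514.7 to 768.9 CPM in OCI-AML3 with OTX015, against 1463 to 1713 CPM in OCI-AML2 with OTX015. TYROBP alone had 10.8 to 18.6 CPM in OCI-AML3, against 575 to 669 CPM in OCI-AML2. FCER1G and CSF3R had more tags in OCI-AML3, 410 and 88, against 209 and 45 in OCI-AML2, but the libraries overlapped. FCER1G had 99.1 to 205 CPM in OCI-AML3, against 67.4 to 99.6 CPM in OCI-AML2. CSF3R had 12.9 to 48.2 CPM in OCI-AML3, against 14.5 to 26.9 CPM in OCI-AML2. ITGAM was at 0 in OCI-AML3 and at 0 to 4.67 CPM (8 tags) in OCI-AML2, and MPO was the marker without an entry. Of 5 stromal and endothelial markers 2 were in the table, with a sum of 4.31 to 10.9 CPM in OCI-AML3, against 63.2 to 183.3 CPM in OCI-AML2. That sum was PECAM1 alone in OCI-AML2, a gene that myeloid cells also express. B-cell markers summed to 0 CPM in OCI-AML3 and 1.17 to 2.90 CPM in OCI-AML2.

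With OTX015 the lines differed at 3721 of 10031 genes tested, 37.1% (edgeR quasi-likelihood test, Benjamini-Hochberg adjusted p under 0.05). Of these, 1897 (18.9%) were higher in OCI-AML3 and 1824 (18.2%) were lower, and 1426 (14.2%) and 1325 (13.2%) differed at least 2-fold in these directions. With vehicle 2308 genes (23%) differed, 1139 higher (11.4%) and 1169 lower (11.7%) in OCI-AML3. The difference between the lines was itself compared between treatments: at 767 genes (7.65%) the line difference with OTX015 differed from that with vehicle, and 482 of them (4.81%) moved to the OCI-AML2 side while 285 (2.84%) moved to the OCI-AML3 side. The median absolute log2 fold change between lines was 0.65 with OTX015 and 0.44 with vehicle, and the median standard error was 0.34 and 0.31. The sets overlapped: 1340 genes differed in the same direction with OTX015 and with vehicle, 691 higher and 649 lower in OCI-AML3. That was 36% of the calls with OTX015 and 58.1% of the calls with vehicle. OTX015 against vehicle changed 5505 genes (54.9%) in OCI-AML3, 2886 up (28.8%) and 2619 down (26.1%), and 4046 genes (40.3%) in OCI-AML2, 2053 up (20.5%) and 1993 down (19.9%).

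Called with OTX015 and not with vehicle were 1173 genes higher and 1128 lower in OCI-AML3. Of these, 463 also had a line difference that changed between the treatments, 172 of them higher and 291 lower in OCI-AML3. For the rest no change of the line difference from vehicle was called. At 125 genes the reverse held, with a call under vehicle, none under OTX015 and a changed line difference. At 80 genes the line that was higher under vehicle was the lower one under OTX015. In libraries 1 and 2 alone the lines differed at 4277 genes with OTX015, 1829 were called in the same direction with vehicle, and the line difference changed at 1410. With JQ1 the lines differed at 3745 genes (37.3%), and 2859 genes were called in the same direction with OTX015 and JQ1 and 0 in opposite directions. No gene passed the test of the line difference with OTX015 against that with JQ1, by edgeR or by DESeq2, and 218 (2.17%) had an unadjusted p under 0.05. A p that misses the threshold does not show that the inhibitors act alike.

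**Figure D1:**
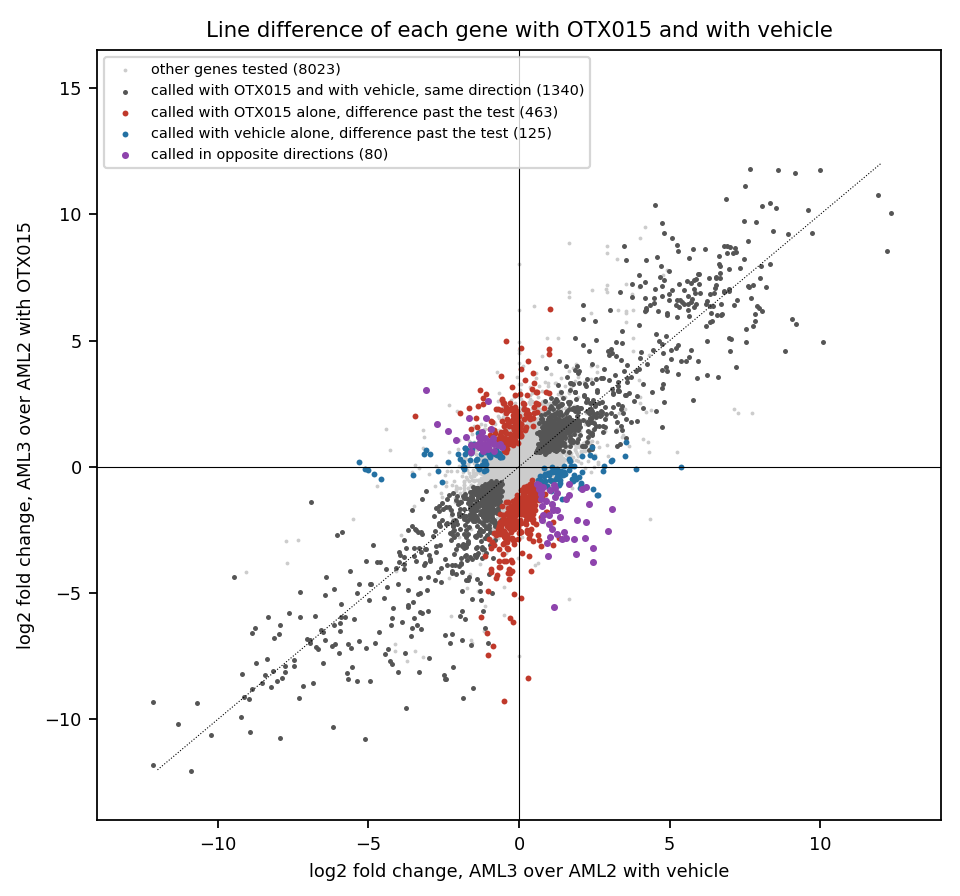
Each point is 1 of the 10031 genes tested, with the log2 fold change of OCI-AML3 over OCI-AML2 with OTX015 on the y axis and with vehicle on the x axis, and the dotted line marks equal differences. The 1340 genes called in the same direction run along the line, the 463 newly separated genes lie above and below the middle, the 125 genes whose separation was lost lie left and right of it, and the 80 opposite genes fill the other corners.

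Many of the widest differences under OTX015 were on-or-off differences, with tags in one line and none in the other. With OTX015 OCI-AML3 alone carried tags of several homeobox transcription factors, of the linker histone H1F0 and of the RNA-binding protein IGF2BP2. With OTX015 OCI-AML2 alone carried tags of the homeobox factor PITX1, the cytokine-signalling inhibitor SOCS2, the activation antigen CD69 and the metalloprotease ADAM8. In all, 167 genes called higher in OCI-AML3 had no tag in the 3 OCI-AML2 libraries with OTX015, and 140 of these had none in OCI-AML2 with vehicle either. In the other direction 106 genes called lower had no tag in OCI-AML3 with OTX015, and 50 of these had none in OCI-AML3 with vehicle.

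HOXB3 (chr17:48548870-48604912, GRCh38, GENCODE 29), a homeobox gene of the HOXB cluster, had 199.9, 192 and 211 CPM in OCI-AML3 with OTX015, against 0 CPM in every library of OCI-AML2 with OTX015. This was at least 157-fold higher in OCI-AML3, taking a floor of 3 tags over the OCI-AML2 group, and the groups did not overlap. HOXB3 with vehicle had 13.5, 19 and 12.8 CPM in OCI-AML3, against 0 CPM in every library of OCI-AML2, and in OCI-AML3 it rose with OTX015 by 3.71 on the log2 scale (adjusted p = 4.7e-10). HOXB-AS3, the antisense RNA of that cluster, had 535, 511 and 291 CPM in OCI-AML3 with OTX015, against 0 CPM in every library of OCI-AML2 with OTX015. It was at least 375-fold higher, and every OCI-AML3 library lay far above the empty OCI-AML2 libraries. The start sites of HOXB3 and HOXB-AS3 lie on opposite strands, and whether the tags were counted by strand is not stated for the gene table.

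HOXA13 (chr7:27193503-27200106), at the 5′ end of the HOXA cluster, had 142, 185 and 222 CPM in OCI-AML3 with OTX015, against 0 CPM in every library of OCI-AML2 with OTX015, at least 138-fold higher in OCI-AML3. HOXA13 with vehicle had 48.1, 35.5 and 39.7 CPM in OCI-AML3, against 0 CPM in every library of OCI-AML2, at least 53.8-fold higher. Further along the same cluster HOXA7 had 1.09, 0 and 0 CPM in OCI-AML3 with OTX015, against 138, 104 and 109 CPM in OCI-AML2 with OTX015, a ratio of 270.0 on the OCI-AML2 side (95% counting interval 48 to 10700.0). Over the HOXA cluster under OTX015, HOXA13, HOXA11 and HOXA10 were higher and HOXA7 and HOXA5 lower in OCI-AML3. HOXA9, between them, had 446, 391 and 271 CPM in OCI-AML3 with OTX015, against 375, 306 and 278 CPM in OCI-AML2 with OTX015, and the libraries overlapped, with a log2 fold change of 0.21 ± 0.26 (SE; adjusted p = 0.54). HOXA9 rose with OTX015 in each line, by 2.27 in OCI-AML3 (adjusted p = 2.64e-07) and by 1.39 in OCI-AML2 (adjusted p = 0.000153). MEIS1, the partner of HOXA9, had 57.9, 47.1 and 45.2 CPM in OCI-AML3 with OTX015, against 118, 104 and 105 CPM in OCI-AML2 with OTX015. It was lower in every OCI-AML3 library, with a log2 fold change of -1.11 ± 0.21 (SE; adjusted p = 0.000155), while with vehicle the fold change was -0.38 ± 0.25 (SE; adjusted p = 0.296). Of the 12 HOX and cofactor genes tested, 5 were higher and 5 lower in OCI-AML3 with OTX015, and the same numbers held with vehicle. Among all genes tested 18.9% were higher and 18.2% lower with OTX015, against 11.4% and 11.7% with vehicle.

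Other homeobox genes of this kind were IRX3, with 459.8, 407 and 482 CPM in OCI-AML3 with OTX015, against 0 CPM in every library of OCI-AML2 with OTX015, and UNCX, with 440.2, 444 and 355 CPM in OCI-AML3 with OTX015, against 0 CPM in every library of OCI-AML2 with OTX015. These were at least 350.0-fold and 335-fold higher in OCI-AML3. MKX, a further homeobox factor, had 187, 163 and 125 CPM in OCI-AML3 with OTX015, against 0 CPM in every library of OCI-AML2 with OTX015. RND3, which loosens actin fibres, had 199.9, 191 and 109.8 CPM in OCI-AML3 with OTX015, against 0 CPM in every library of OCI-AML2 with OTX015. RND3 with vehicle had only 2.35, 2.6 and 4.25 CPM in OCI-AML3, against 0 CPM in every library of OCI-AML2, so its level in OCI-AML3 rose with OTX015 by 5.85 on the log2 scale (adjusted p = 4.7e-10) while OCI-AML2 stayed without a tag. H1F0, a replacement linker histone of non-dividing cells, had 608, 532 and 252 CPM in OCI-AML3 with OTX015, against 0 CPM in every library of OCI-AML2 with OTX015, at least 399-fold higher. Library 3 was the lowest of OCI-AML3 for H1F0. BAHCC1, YPEL3, IGF2BP2 and HIST3H2A completed the 12 highest, each with no tag in OCI-AML2 with OTX015 and at least 114-fold to 223-fold higher in OCI-AML3.

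On the OCI-AML2 side PITX1 (chr5:135027735-135034813), a homeobox factor of limb and pituitary development, had 0 CPM in every library of OCI-AML3 with OTX015, against 560.4, 563 and 524 CPM in OCI-AML2 with OTX015. It was at least 424-fold lower in OCI-AML3 and at least 310.0-fold lower with vehicle. SOCS2 had 0 CPM in every library of OCI-AML3 with OTX015, against 242, 248 and 198 CPM in OCI-AML2 with OTX015. SOCS2 with vehicle had 3.52, 5.19 and 1.42 CPM in OCI-AML3, against 162, 175 and 46 CPM in OCI-AML2, and it fell with OTX015 in OCI-AML3 (adjusted p = 0.0193). CD69 had 0 CPM in every library of OCI-AML3 with OTX015, against 212, 228 and 238 CPM in OCI-AML2 with OTX015, at least 172-fold lower in OCI-AML3. FGR, a SRC-family kinase of myeloid cells, had 0 CPM in every library of OCI-AML3 with OTX015, against 99.2, 71.6 and 128 CPM in OCI-AML2 with OTX015, at least 71.1-fold lower. FGR with vehicle had 2.35, 3.46 and 0 CPM in OCI-AML3, against 29.5, 23.3 and 46 CPM in OCI-AML2. For SOCS2 and FGR the line difference was wider with OTX015 than with vehicle (adjusted p = 0.0362 and 0.0199).

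ADAM8, a leukocyte metalloprotease, had 0 CPM in every library of OCI-AML3 with OTX015, against 173, 133 and 198 CPM in OCI-AML2 with OTX015, and with vehicle 0 CPM in every library of OCI-AML3, against 5.9, 14.6 and 3.83 CPM in OCI-AML2. Here the OCI-AML2 level rose with OTX015, by 4.14 on the log2 scale (adjusted p = 4.65e-09), against an OCI-AML3 level of 0 throughout. BCL7A, SNURF and KCNE5 were at 0 in every OCI-AML3 library with OTX015, at least 68.5-fold to 157-fold lower. HIST1H2BB and HIST1H3C were also among the 12 lowest. Tags of histone, HLA, metallothionein and XAGE1 genes can be shared with near-identical copies, so values of single members are uncertain. The remaining genes of the 12 lowest are not described.

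**Figure D2:**
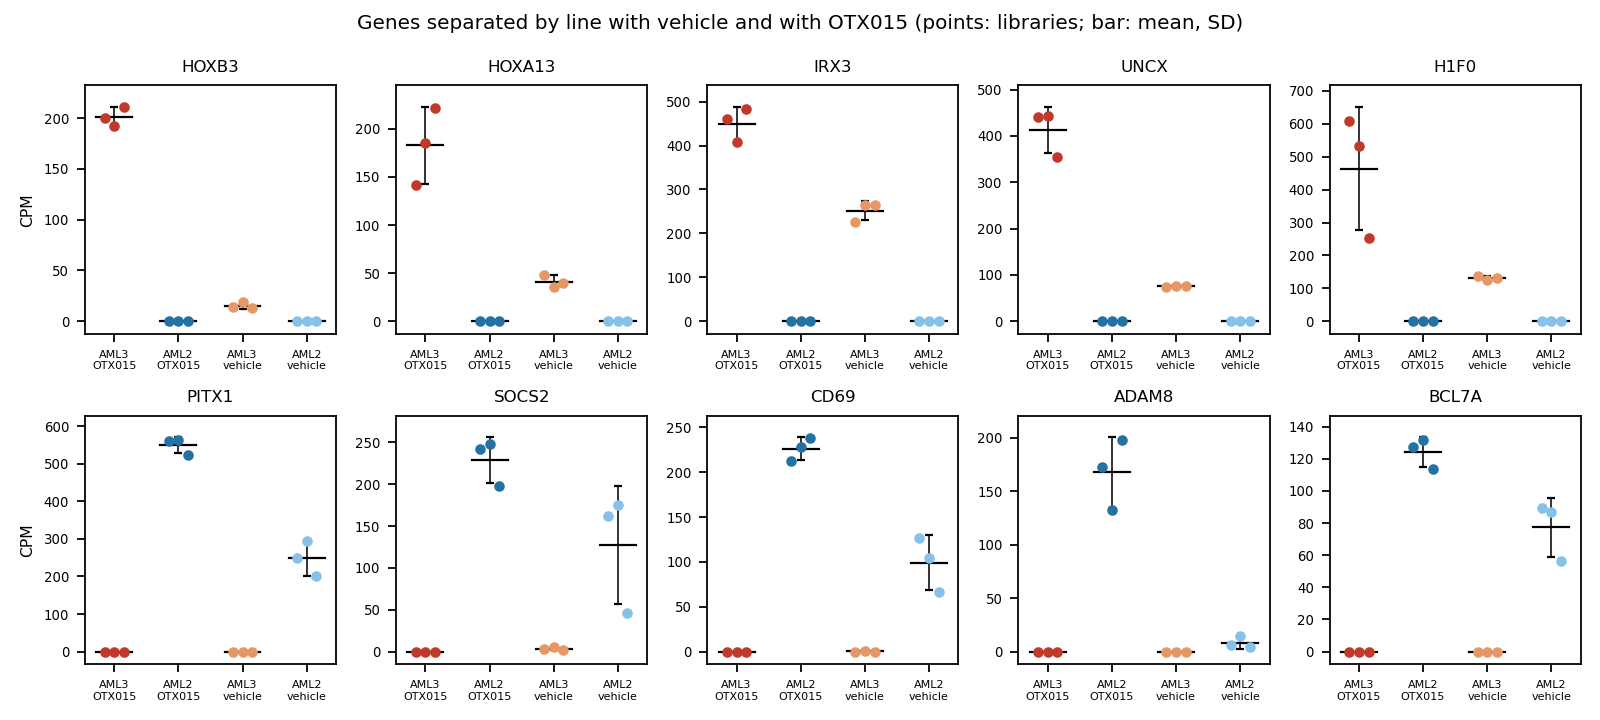
Normalised CPM (y axis, linear, own scale per panel) of 10 genes in each library, in OCI-AML3 with OTX015, OCI-AML2 with OTX015, OCI-AML3 with vehicle and OCI-AML2 with vehicle. Bars give the mean and SD of 3 libraries. With OTX015, HOXB3, HOXA13, IRX3, UNCX and H1F0 have tags in OCI-AML3 only, and PITX1, SOCS2, CD69, ADAM8 and BCL7A in OCI-AML2 only.

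The genes newly separated on the OCI-AML2 side were led by 6 genes. These were the fatty-acid receptor GPR84, the actin regulator CORO1A, the integrin chain ITGAX (CD11c), the cytokine receptor IL17RA, the vesicle GTPase RAB8B and the transcription factor IKZF1. None of these 6 passed between the lines with vehicle, and in each the OCI-AML3 level fell with OTX015 while the OCI-AML2 level rose (GPR84, ITGAX, IL17RA, RAB8B) or did not pass the test (CORO1A, IKZF1). Over the 291 newly lower genes, 121 fell in OCI-AML3 alone, 50 fell in OCI-AML3 and rose in OCI-AML2, 65 rose in OCI-AML2 alone, 46 fell in both lines, and 9 rose in both. The fit gave 260 of the 291 as lower with JQ1 too.

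GPR84 had 1.09, 0 and 0 CPM in OCI-AML3 with OTX015, against 190.3, 219 and 149 CPM in OCI-AML2 with OTX015. GPR84 with vehicle had 29.9, 36.3 and 21.3 CPM in OCI-AML3, against 23.6, 16.8 and 37.1 CPM in OCI-AML2, so the groups overlapped there and stood wholly apart with OTX015. The ratio with OTX015 was 446 on the OCI-AML2 side (95% counting interval 79.6 to 17700.0), and the change in line difference had an adjusted p of 7.21e-09. ITGAX (chr16:31355134-31382997) had 0 CPM in every library of OCI-AML3 with OTX015, against 92.2, 60.9 and 92.6 CPM in OCI-AML2 with OTX015, at least 60.1-fold lower in OCI-AML3. ITGAX with vehicle had 4.69, 4.33 and 7.09 CPM in OCI-AML3, against 6.74, 8.68 and 5.11 CPM in OCI-AML2, a low level in both lines. ITGAX fell in OCI-AML3 (adjusted p = 0.000524) and rose in OCI-AML2 by 3.45 on the log2 scale (adjusted p = 1.02e-08).

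CORO1A had 6.55, 4.38 and 4.31 CPM in OCI-AML3 with OTX015, against 93.4, 82.2 and 88.4 CPM in OCI-AML2 with OTX015, a log2 fold change of -4.04 ± 0.32 (SE; adjusted p = 1.75e-10). CORO1A with vehicle had 49.8, 47.6 and 65.2 CPM in OCI-AML3, against 54.8, 61.3 and 89.4 CPM in OCI-AML2. It fell by 3.32 on the log2 scale in OCI-AML3, and its OCI-AML2 level did not pass the test (adjusted p = 0.132). IL17RA had 49.1, 65.7 and 25.8 CPM in OCI-AML3 with OTX015, against 982, 778 and 969 CPM in OCI-AML2 with OTX015, and with vehicle 188, 196 and 126 CPM in OCI-AML3, against 196, 145 and 323 CPM in OCI-AML2. IL17RA moved in both lines, down in OCI-AML3 (log2 fold change -1.81, adjusted p = 0.000142) and up in OCI-AML2 (2.05, adjusted p = 2.45e-05). IKZF1 (Ikaros), a zinc finger factor of lymphoid and myeloid development, had 14.2, 19.7 and 21.5 CPM in OCI-AML3 with OTX015, against 140.1, 134 and 175 CPM in OCI-AML2 with OTX015. IKZF1 with vehicle had 79.2, 80.5 and 75.2 CPM in OCI-AML3, against 108, 107 and 120.1 CPM in OCI-AML2. Its libraries did not overlap with vehicle either, though the test there was not passed. The change in the IKZF1 line difference was -2.53 ± 0.32 (SE; adjusted p = 1.18e-05).

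SPI1 (PU.1), a master factor of the monocyte lineage, had 71, 63.5 and 36.6 CPM in OCI-AML3 with OTX015, against 323, 196 and 177 CPM in OCI-AML2 with OTX015. SPI1 with vehicle had 339, 347 and 234 CPM in OCI-AML3, against 287, 395 and 382 CPM in OCI-AML2, where the libraries overlapped. With OTX015 every OCI-AML3 library was below every OCI-AML2 library, with a log2 fold change of -1.99 ± 0.30 (SE; adjusted p = 9.44e-06), and the change in line difference was -1.79 ± 0.40 (SE; adjusted p = 0.0051). RUNX2, a Runt-domain factor, had 50.2, 36.1 and 45.2 CPM in OCI-AML3 with OTX015, against 717, 876 and 705 CPM in OCI-AML2 with OTX015, a log2 fold change of -4.13 ± 0.32 (SE; adjusted p = 1.75e-10), and was already lower in OCI-AML3 with vehicle (-2.22). On the other side ID1, which blocks basic helix-loop-helix factors, had 59, 69 and 88.3 CPM in OCI-AML3 with OTX015, against 1.17, 0.967 and 4.21 CPM in OCI-AML2 with OTX015. ID1 was higher in OCI-AML3 in both treatments (5.27 with OTX015 and 4.54 with vehicle). Among 27 myeloid transcription factors tested, 7 were higher and 7 lower in OCI-AML3 with OTX015, against 10 higher and 2 lower with vehicle. The line difference of 9 of them moved to the OCI-AML2 side and that of 2 to the OCI-AML3 side. For all genes tested the shares were 18.9% higher and 18.2% lower with OTX015, against 11.4% and 11.7% with vehicle. Of all line differences 4.81% moved to the OCI-AML2 side and 2.84% to the OCI-AML3 side.

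Monocyte and macrophage genes had different calls in the 2 treatments. Of 20 tested, 9 were lower and 4 higher in OCI-AML3 with OTX015, against 3 lower and 9 higher with vehicle, and the line difference of 12 moved to the OCI-AML2 side and of 0 to the OCI-AML3 side. Across all genes tested 18.2% were lower and 18.9% higher with OTX015, against 11.7% and 11.4% with vehicle. The share of line differences moved to the OCI-AML2 side was 4.81% over all genes tested. The median log2 fold change was -1.11 with OTX015 and 1.06 with vehicle, against 0.034 and -0.036 over all genes tested. The summed level of these genes was 545.0, 545.4 and 572.9 CPM in OCI-AML3 with OTX015, against 6311, 7130 and 9628 CPM in OCI-AML2 with OTX015, and S100A9 alone made up the larger part of each of these OCI-AML2 sums. The sums with vehicle were 1621, 1540 and 2216 CPM in OCI-AML3, against 2006, 1712 and 2728 CPM in OCI-AML2, which overlapped. Without OCI-AML2 library 1 with OTX015, 2 rather than 4 were higher, and without the libraries numbered 3 9 lower and 3 higher were called. In bulk libraries, fewer cells of a type and less RNA per cell cannot be told apart.

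S100A9, a calcium-binding alarmin of neutrophils and monocytes, had 30.6, 24.1 and 92.6 CPM in OCI-AML3 with OTX015, against 3719.8, 3864 and 6544 CPM in OCI-AML2 with OTX015. The fold change was -6.66 ± 0.68 (SE; adjusted p = 2.02e-08) on the log2 scale, and with vehicle S100A9 had 59.2, 51 and 160.2 CPM in OCI-AML3, against 292, 218 and 969.8 CPM in OCI-AML2. S100A9 rose in OCI-AML2 by 3.26 (adjusted p = 5.27e-05), and its OCI-AML3 level did not pass (adjusted p = 0.179). TYROBP (DAP12), the adaptor of activating myeloid receptors, had 16.4, 18.6 and 10.8 CPM in OCI-AML3 with OTX015, against 621, 669 and 575 CPM in OCI-AML2 with OTX015. TYROBP with vehicle had 154, 155 and 245 CPM in OCI-AML3, against 460.1, 423 and 436 CPM in OCI-AML2, so OCI-AML3 was already the lower line. TYROBP fell by 3.52 on the log2 scale in OCI-AML3 and did not pass in OCI-AML2 (adjusted p = 0.127), and its line difference changed by -4.03 ± 0.43 (SE; adjusted p = 7.18e-07). On the OCI-AML3 side were, among others, the scavenger receptor CD36, the proteoglycan VCAN and the Fc receptor chain FCER1G. CD14 did not pass the filter on low counts.

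Genes of the NF-kB pathway were lower in OCI-AML3 with OTX015. NF-kB dimers of REL, RELA, RELB, NFKB1 and NFKB2 are held in the cytoplasm by IkB proteins such as NFKBIA, and they turn on their own inhibitors, survival genes and cytokines. Of 22 genes tested, 13 were lower and 0 higher in OCI-AML3 with OTX015, against 1 lower and 4 higher with vehicle. All genes tested gave 18.2% lower and 18.9% higher with OTX015, and 11.7% and 11.4% with vehicle. In OCI-AML2 16 rose with OTX015 and 0 fell, while in OCI-AML3 9 rose and 6 fell. Of all genes tested 20.5% rose in OCI-AML2 and 28.8% in OCI-AML3. The line difference of 7 moved to the OCI-AML2 side, as did 4.81% over all genes tested. From libraries 1 and 2 alone 15 lower and 2 higher were called. The median log2 fold change between lines was -1.49 with OTX015, against 0.034 over all genes tested.

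NFKBIA, the inhibitor IkBα, had 71, 64.6 and 66.8 CPM in OCI-AML3 with OTX015, against 503, 378 and 408 CPM in OCI-AML2 with OTX015. NFKBIA with vehicle had 25.8, 20.8 and 31.2 CPM in OCI-AML3, against 11.8, 22.2 and 26.8 CPM in OCI-AML2. It rose in both lines, by 1.40 in OCI-AML3 and by 4.42 in OCI-AML2 on the log2 scale, and the line difference changed by -3.02 ± 0.42 (SE; adjusted p = 2.86e-05). TNFAIP3 (A20), a ubiquitin-editing inhibitor of the pathway, had 4.37, 6.57 and 2.15 CPM in OCI-AML3 with OTX015, against 117, 99.6 and 99 CPM in OCI-AML2 with OTX015. TNFAIP3 with vehicle had 9.38, 9.52 and 12.8 CPM in OCI-AML3, against 29.5, 28.2 and 23 CPM in OCI-AML2, and it fell in OCI-AML3 (adjusted p = 0.0415) and rose in OCI-AML2 (adjusted p = 9.2e-08). BCL3, a nuclear IkB protein, had 9.83, 9.86 and 34.5 CPM in OCI-AML3 with OTX015, against 147, 134 and 105 CPM in OCI-AML2 with OTX015. BCL3 with vehicle had 1.17, 2.6 and 5.67 CPM in OCI-AML3, against 2.53, 4.34 and 3.83 CPM in OCI-AML2, and it rose in both lines, while its change in line difference did not pass (adjusted p = 0.11). BIRC3, CCL2, ICAM1, IL1B, RELB and NFKB2 were further members lower in OCI-AML3, among them the apoptosis inhibitor BIRC3, with 0 CPM in every library of OCI-AML3 with OTX015, against 26.9, 21.3 and 23.2 CPM in OCI-AML2 with OTX015, and the precursor subunit NFKB2, with a log2 fold change of -2.32 ± 0.35 (SE; adjusted p = 9.63e-06).

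The 250 bases before the RefSeq start (GRCh38.p14, strand of the gene) are shown for NFKBIA, TNFAIP3 and the monocyte-list gene TYROBP. They were picked because they carry a match, marked in capitals, to an NF-kB word (NFKBIA, TNFAIP3) or an ETS-family word (TYROBP). The same stretches of BCL3 and S100A9 had no match to either word and are not shown. NFKBIA lies at chr14:35404750-35404999 on the minus strand and its match starts at position -81, TNFAIP3 at chr6:137867009-137867258 on the plus strand with its match at -67, and TYROBP at chr19:35908296-35908545 on the minus strand with its match at -12.
NFKBIA: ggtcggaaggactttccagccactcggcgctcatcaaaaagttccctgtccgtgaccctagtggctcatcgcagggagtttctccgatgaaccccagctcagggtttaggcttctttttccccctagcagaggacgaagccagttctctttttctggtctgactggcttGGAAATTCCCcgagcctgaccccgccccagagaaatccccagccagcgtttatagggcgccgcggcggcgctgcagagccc
TNFAIP3: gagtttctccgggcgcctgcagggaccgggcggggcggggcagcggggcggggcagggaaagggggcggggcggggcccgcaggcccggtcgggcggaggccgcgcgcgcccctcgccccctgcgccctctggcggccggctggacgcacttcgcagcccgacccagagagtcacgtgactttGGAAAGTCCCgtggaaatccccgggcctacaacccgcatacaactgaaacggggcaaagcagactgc
TYROBP: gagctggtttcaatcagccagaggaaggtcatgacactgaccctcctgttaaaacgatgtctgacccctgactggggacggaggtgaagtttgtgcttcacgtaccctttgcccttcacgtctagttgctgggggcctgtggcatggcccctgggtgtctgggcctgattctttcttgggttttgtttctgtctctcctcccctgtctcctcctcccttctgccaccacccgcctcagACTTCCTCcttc
Both strands were searched for a single NF-kB word, whose matches are the capitals of NFKBIA and TNFAIP3. They were also searched for GAGGAAGT, a word of the ETS family that includes SPI1. The NF-kB word is narrower than the general NF-kB consensus, so other forms of the site were neither marked nor counted. In TNFAIP3 such a form follows the capitals in lower case, so the marked match is not its only possible site. The searched NF-kB word was in 5 of 19 NF-kB promoters of tested genes (26.3%) and in 3 of the 10 of members called lower (30%). It was in 1.4% of 35116 RefSeq promoters of the same length. GAGGAAGT was in 1 of 16 monocyte promoters (6.25%), in 2 of 19 NF-kB promoters (10.5%) and in 2.17% of the 35116. The NF-kB list was made of pathway and target genes, so its share of NF-kB matches is not independent evidence. A match describes these letters and is not evidence of binding.

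Of 26 integrin and adhesion genes tested, 16 were lower and 3 higher in OCI-AML3 with OTX015, against 6 lower and 3 higher with vehicle, and 10 line differences moved to the OCI-AML2 side. Without the libraries numbered 3, 18 lower and 2 higher were called. All genes tested gave 18.2% lower and 18.9% higher with OTX015, against 11.7% and 11.4% with vehicle, and 4.81% moved to the OCI-AML2 side. CD82, a tetraspanin, had 1.09, 0 and 4.31 CPM in OCI-AML3 with OTX015, against 85.2, 87.1 and 109 CPM in OCI-AML2 with OTX015. CD82 with vehicle had 2.93, 2.6 and 2.84 CPM in OCI-AML3, against 4.21, 1.63 and 6.39 CPM in OCI-AML2, so the separation came with a rise in OCI-AML2 of 4.68 on the log2 scale (adjusted p = 3.55e-10). ITGAL (CD11a) had 7.65, 6.57 and 12.9 CPM in OCI-AML3 with OTX015, against 91.1, 107 and 88.4 CPM in OCI-AML2 with OTX015, with a log2 fold change of -3.50 ± 0.30 (SE; adjusted p = 8.83e-10). Integrin chains on the OCI-AML3 side were ITGB1 (1.89) and ITGA6 (1.23). PECAM1 had 5.46, 4.38 and 4.31 CPM in OCI-AML3 with OTX015, against 183, 182 and 63.2 CPM in OCI-AML2 with OTX015, with a log2 fold change of -4.91 ± 0.51 (SE; adjusted p = 2.55e-08).

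Of 26 cytokine and chemokine receptor genes, 15 were lower and 3 higher with OTX015, against 5 lower and 7 higher with vehicle, and 11 line differences moved to the OCI-AML2 side. Without the libraries numbered 3 these were 16 lower and 4 higher. Among all genes tested 18.2% were lower and 18.9% higher with OTX015, against 11.7% and 11.4% with vehicle, and 4.81% moved to the OCI-AML2 side. FLT3, the receptor tyrosine kinase of early progenitors, had 18.6, 26.3 and 30.2 CPM in OCI-AML3 with OTX015, against 319, 316 and 263 CPM in OCI-AML2 with OTX015. FLT3 with vehicle had 35.2, 33.7 and 55.3 CPM in OCI-AML3, against 103, 105 and 75.4 CPM in OCI-AML2. FLT3 fell in OCI-AML3 (log2 fold change -0.72, adjusted p = 0.0372) and rose in OCI-AML2 (1.66, adjusted p = 3.08e-06), and the line difference changed by -2.38 ± 0.37 (SE; adjusted p = 0.000111). IFNGR1, the interferon-gamma receptor chain, had 29.5, 21.9 and 12.9 CPM in OCI-AML3 with OTX015, against 124, 96.7 and 122 CPM in OCI-AML2 with OTX015, and its line difference was also present with vehicle (-1.78). PLAUR, the urokinase receptor, had 6.55, 14.2 and 12.9 CPM in OCI-AML3 with OTX015, against 106, 101 and 101 CPM in OCI-AML2 with OTX015, with a line difference changed by -2.83 ± 0.39 (SE; adjusted p = 2.57e-05). Of 27 extracellular matrix and protease genes, 12 were lower and 6 higher, against 3 lower and 6 higher with vehicle. The share higher with OTX015 was near the 18.9% of all genes tested. The higher ones included the protease inhibitor TIMP3, with 117, 177 and 336 CPM in OCI-AML3 with OTX015, against 0, 0.967 and 0 CPM in OCI-AML2 with OTX015, and fibronectin FN1, with 10.9, 6.57 and 8.61 CPM in OCI-AML3 with OTX015, against 0 CPM in every library of OCI-AML2 with OTX015.

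Granule and antigen-presentation genes were also split. CTSG, the serine protease cathepsin G, had 21.8, 17.5 and 4.31 CPM in OCI-AML3 with OTX015, against 671, 867 and 709.5 CPM in OCI-AML2 with OTX015. CTSG with vehicle had 2554, 2718 and 4190.4 CPM in OCI-AML3, against 1652, 1699 and 907 CPM in OCI-AML2, where OCI-AML3 was higher (1.15 ± 0.39 (SE; adjusted p = 0.0314)). CTSG fell by 7.63 on the log2 scale in OCI-AML3 and did not pass in OCI-AML2 (adjusted p = 0.059). SRGN, the granule proteoglycan, had 158, 150.03 and 68.9 CPM in OCI-AML3 with OTX015, against 886, 693 and 1280.1 CPM in OCI-AML2 with OTX015, with a log2 fold change of -2.90 ± 0.38 (SE; adjusted p = 1.05e-06). CFD, complement factor D, had 1710.4, 2138 and 1038 CPM in OCI-AML3 with OTX015, against 104, 133 and 120.01 CPM in OCI-AML2 with OTX015 and was the higher in OCI-AML3 with vehicle too. Over 12 primary granule genes 6 were lower and 2 higher with OTX015, and 3 rather than 6 were lower where only the 2 groups were fitted. CD74, the invariant chain of MHC class II, had 25.1, 19.7 and 15.1 CPM in OCI-AML3 with OTX015, against 336, 332 and 219 CPM in OCI-AML2 with OTX015. CD74 with vehicle had 97.9, 99.5 and 68.1 CPM in OCI-AML3, against 400.3, 398 and 224 CPM in OCI-AML2, and the line difference changed by -1.91 ± 0.45 (SE; adjusted p = 0.00808). Of 8 MHC class II genes 5 were lower and 0 higher with OTX015, against 4 lower and 0 higher with vehicle, and 3 were lower without OCI-AML3 library 1 or where only the 2 groups were fitted. For all genes tested the shares lower and higher were 18.2% and 18.9% with OTX015, and 11.7% and 11.4% with vehicle.

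**Figure D3:**
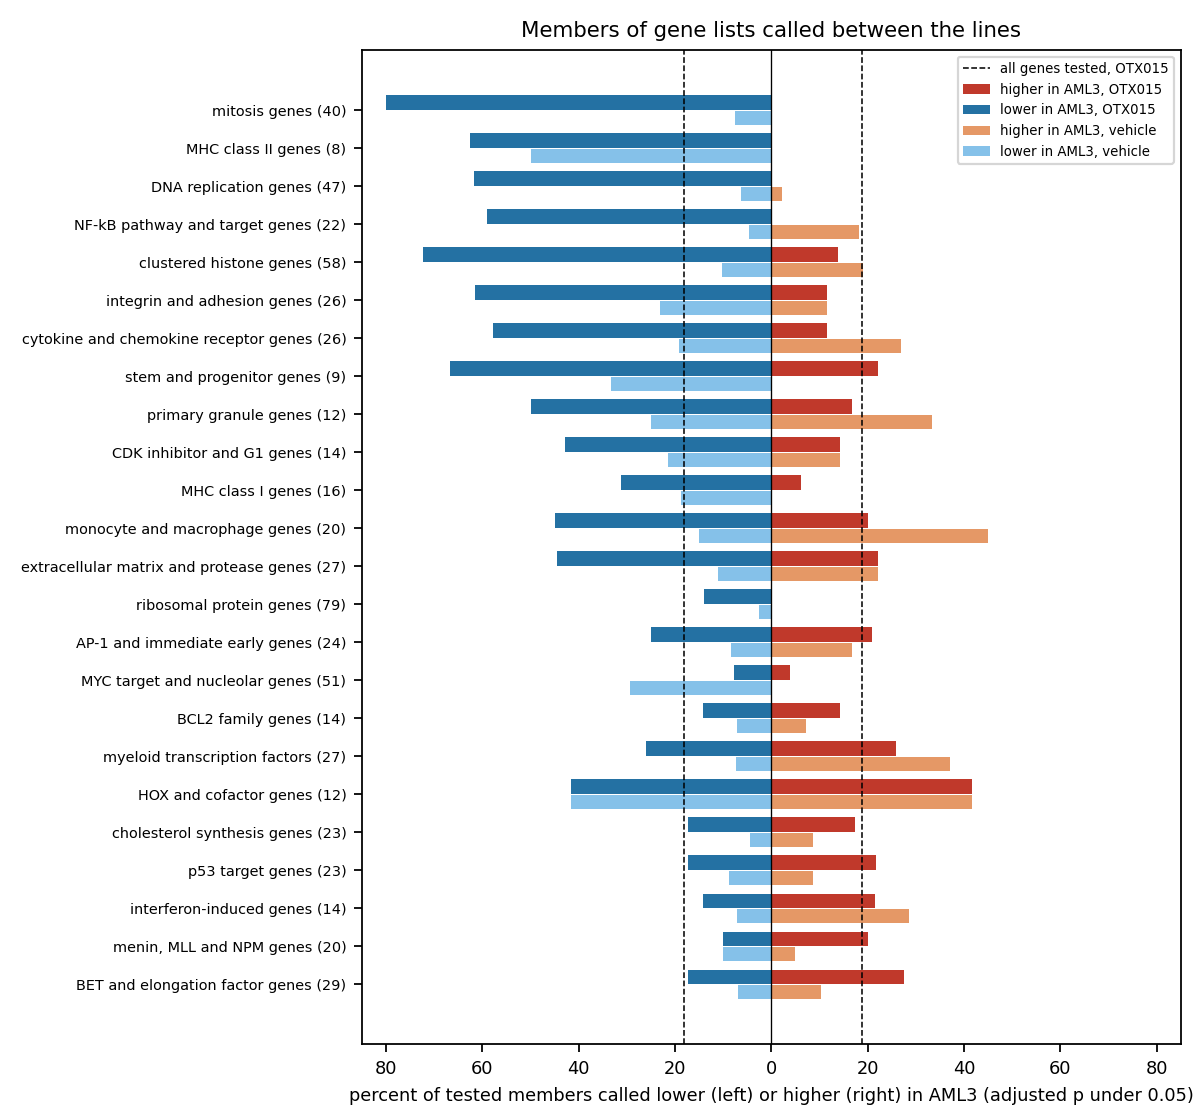
Share of the tested members of each gene list (number in brackets) called lower (left) or higher (right) in OCI-AML3 than in OCI-AML2 at an adjusted p under 0.05, with OTX015 in the upper bar and vehicle in the lower bar of each pair. Dashed lines give the shares over all genes tested with OTX015, 18.2% lower and 18.9% higher. Mitosis, DNA replication, histone and NF-kB genes reach far past the left dashed line with OTX015 and stop short of it with vehicle.

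Cell division genes were lower in OCI-AML3 with OTX015. Of 40 mitosis genes tested 32 were lower and 0 higher, with a median log2 fold change of -1.34, against 3 lower and 0 higher with vehicle (median -0.21). Of 47 DNA replication genes 29 were lower and 0 higher (median -1.27), against 3 lower and 1 higher with vehicle. The line difference of 13 mitosis genes and 16 replication genes moved to the OCI-AML2 side. In OCI-AML3 38 of the 40 mitosis genes fell with OTX015 and in OCI-AML2 23 did. All genes tested gave 18.2% lower and 18.9% higher with OTX015, and 11.7% and 11.4% with vehicle. Of all genes tested 4.81% moved to the OCI-AML2 side, and 26.1% fell in OCI-AML3 and 19.9% in OCI-AML2. In libraries 1 and 2 alone, the calls were 38 lower and 0 higher for mitosis and 35 lower and 0 higher for replication. The summed mitosis level was 906.5, 788.5 and 1271 CPM in OCI-AML3 with OTX015, against 2563, 2468 and 1733 CPM in OCI-AML2 with OTX015. The sums with vehicle were 3153, 3336 and 3870 CPM in OCI-AML3, against 4134, 3778 and 3612 CPM in OCI-AML2, which overlapped.

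CENPA, the centromere histone, had 6.55, 9.86 and 19.4 CPM in OCI-AML3 with OTX015, against 59.5, 62.9 and 46.3 CPM in OCI-AML2 with OTX015. CENPA with vehicle had 46.9, 66.6 and 68.1 CPM in OCI-AML3, against 73.3, 83.5 and 65.2 CPM in OCI-AML2, and the line difference changed by -2.08 ± 0.40 (SE; adjusted p = 0.00135). UBE2C, the ubiquitin-conjugating enzyme of the anaphase-promoting complex, had 44.8, 44.9 and 34.5 CPM in OCI-AML3 with OTX015, against 167, 193 and 90.5 CPM in OCI-AML2 with OTX015, with a log2 fold change of -1.86 ± 0.30 (SE; adjusted p = 2.03e-05). SPC25, a kinetochore subunit, had 5.46, 7.67 and 8.61 CPM in OCI-AML3 with OTX015, against 39.7, 33.9 and 27.4 CPM in OCI-AML2 with OTX015. In all 3 genes every OCI-AML3 library was below every OCI-AML2 library. MCM2, a subunit of the replicative helicase, had 10.9, 13.1 and 10.8 CPM in OCI-AML3 with OTX015, against 102, 63.9 and 44.2 CPM in OCI-AML2 with OTX015, and with vehicle 98.5, 91.7 and 96.4 CPM in OCI-AML3, against 107, 113 and 123 CPM in OCI-AML2. RRM2, the small subunit of ribonucleotide reductase, had 64.4, 83.2 and 64.6 CPM in OCI-AML3 with OTX015, against 386, 457 and 282 CPM in OCI-AML2 with OTX015. RRM2 fell in OCI-AML3 (adjusted p = 0.0118) and rose in OCI-AML2 (adjusted p = 0.00358).

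Of 58 clustered histone genes tested 42 were lower and 8 higher in OCI-AML3 with OTX015 (median log2 fold change -2.00), against 6 lower and 11 higher with vehicle. Libraries 1 and 2 alone gave 48 lower and 8 higher. In OCI-AML3 52 of them fell with OTX015, against 7 in OCI-AML2. Across all genes tested 18.2% were lower and 18.9% higher with OTX015, and 26.1% fell in OCI-AML3 and 19.9% in OCI-AML2. Among the cell-cycle brakes and G1 genes, CDKN2A, which encodes p16 and ARF, had 3.28, 4.38 and 0 CPM in OCI-AML3 with OTX015, against 168, 149 and 177 CPM in OCI-AML2 with OTX015. CDKN2A with vehicle had 23.5, 22.5 and 8.51 CPM in OCI-AML3, against 165, 162 and 151 CPM in OCI-AML2, and it fell by 2.63 on the log2 scale in OCI-AML3. CCND3, cyclin D3, had 74.3, 67.9 and 36.6 CPM in OCI-AML3 with OTX015, against 778, 753 and 552 CPM in OCI-AML2 with OTX015, with a line difference changed by -2.03 ± 0.39 (SE; adjusted p = 0.00108). CDK6, its kinase, had 92.8, 84.3 and 286 CPM in OCI-AML3 with OTX015, against 45.5, 59.98 and 67.4 CPM in OCI-AML2 with OTX015, higher in OCI-AML3 with a log2 fold change of 1.37 ± 0.46 (SE; adjusted p = 0.0199). Library 3 of OCI-AML3 held the highest CDK6 value, and without it the fold change was 0.64 and did not pass, nor did the gene pass without OCI-AML2 library 1 or 2.

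Genes newly higher in OCI-AML3 were fewer. FABP5, a fatty-acid carrier, HMGCS1, which makes HMG-CoA for cholesterol synthesis, the zinc importer SLC39A8, the helix-loop-helix inhibitor ID3 and the lipid flippase ATP8B4 led them. FABP5, SLC39A8 and ID3 rose in OCI-AML3 and fell in OCI-AML2, HMGCS1 fell in OCI-AML2 alone, and ATP8B4 rose in OCI-AML3 alone. Of the 172 genes, 103 rose in OCI-AML3 alone, 33 fell in OCI-AML2 alone, 18 rose in both lines, 12 rose in OCI-AML3 and fell in OCI-AML2, 5 fell in both, and 1 passed in neither line. The fit gave 139 of the 172 as higher with JQ1 too.

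FABP5 had 963, 634 and 293 CPM in OCI-AML3 with OTX015, against 29.2, 50.3 and 82.1 CPM in OCI-AML2 with OTX015. FABP5 with vehicle had 222, 172 and 333 CPM in OCI-AML3, against 414, 367 and 322 CPM in OCI-AML2, where the groups overlapped. With OTX015 FABP5 rose in OCI-AML3 (log2 fold change 1.39, adjusted p = 0.00245) and fell in OCI-AML2 (-2.82, adjusted p = 5.79e-06). HMGCS1 had 64.4, 77.8 and 40.9 CPM in OCI-AML3 with OTX015, against 10.5, 13.5 and 16.8 CPM in OCI-AML2 with OTX015, and with vehicle 88, 78.7 and 42.5 CPM in OCI-AML3, against 132, 86.8 and 107 CPM in OCI-AML2. HMGCS1 fell by 3.02 on the log2 scale in OCI-AML2, and in OCI-AML3 it did not pass (adjusted p = 0.555). Of 23 cholesterol synthesis genes tested 4 were higher and 4 lower, shares near those over all genes tested (18.9% higher and 18.2% lower). ID3 had 72.1, 104 and 79.7 CPM in OCI-AML3 with OTX015, against 4.67, 10.6 and 14.7 CPM in OCI-AML2 with OTX015, and with vehicle 24, 16.4 and 25.5 CPM in OCI-AML3, against 37.1, 30.4 and 3.83 CPM in OCI-AML2. The ID3 libraries did not overlap with OTX015, with a log2 fold change of 3.18 ± 0.42 (SE; adjusted p = 1.31e-06).

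ATP8B4 had 269, 272 and 166 CPM in OCI-AML3 with OTX015, against 37.4, 19.3 and 10.5 CPM in OCI-AML2 with OTX015, with a line difference changed by 2.81 ± 0.47 (SE; adjusted p = 0.00024). SLC39A8 had 71, 82.1 and 49.5 CPM in OCI-AML3 with OTX015, against 12.8, 22.3 and 10.5 CPM in OCI-AML2 with OTX015, with a line difference changed by 2.20 ± 0.36 (SE; adjusted p = 0.000212). CZ1P-ASNS, a readthrough name that overlaps the asparagine synthetase gene ASNS, had 133, 137 and 144 CPM in OCI-AML3 with OTX015, against 40.9, 35.8 and 46.3 CPM in OCI-AML2 with OTX015, and tags of the overlapping genes cannot be told apart. SOX4, a progenitor transcription factor, had 234, 237 and 157 CPM in OCI-AML3 with OTX015, against 59.5, 44.5 and 42.1 CPM in OCI-AML2 with OTX015. SOX4 with vehicle had 61, 64.9 and 45.4 CPM in OCI-AML3, against 48, 48.8 and 40.9 CPM in OCI-AML2, and SOX4 rose in OCI-AML3 by 1.87 on the log2 scale (adjusted p = 3.39e-07).

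At 125 genes a separation called with vehicle was not called with OTX015 and the line difference changed between the treatments. Without the condition on the change, 401 genes higher and 487 lower in OCI-AML3 with vehicle were not called with OTX015. KLF2, a zinc finger factor of quiescent leukocytes, had 53.5, 69 and 121 CPM in OCI-AML3 with OTX015, against 86.4, 77.4 and 82.1 CPM in OCI-AML2 with OTX015, which overlapped. KLF2 with vehicle had 22.3, 27.7 and 25.5 CPM in OCI-AML3, against 1.69, 1.08 and 2.56 CPM in OCI-AML2, all OCI-AML3 libraries being higher. KLF2 rose in both lines, by 1.63 in OCI-AML3 and by 5.58 in OCI-AML2 on the log2 scale, and the line difference changed by -3.95 ± 0.63 (SE; adjusted p = 0.000168). The kinase PRKCB had 123, 129 and 166 CPM in OCI-AML3 with OTX015, against 109.7, 103 and 103 CPM in OCI-AML2 with OTX015, and with vehicle 113, 129.8 and 159 CPM in OCI-AML3, against 21.1, 25 and 24.3 CPM in OCI-AML2. PRKCB rose in OCI-AML2 by 2.16 on the log2 scale and did not pass in OCI-AML3 (adjusted p = 0.836).

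The lysosomal protease CTSB had 137, 74.5 and 103 CPM in OCI-AML3 with OTX015, against 181, 193 and 112 CPM in OCI-AML2 with OTX015, and with vehicle 83.8, 77 and 83.7 CPM in OCI-AML3, against 27.8, 17.9 and 11.5 CPM in OCI-AML2. CTSB rose in OCI-AML2 by 3.06 (adjusted p = 7.47e-08) and did not pass in OCI-AML3. The acyl-CoA synthetase ACSL1 and the integrin activator FERMT3 also lost an OCI-AML3 excess, falling in OCI-AML3 and rising in OCI-AML2, with line differences changed by -2.40 ± 0.37 (SE; adjusted p = 0.000115) and -2.29 ± 0.36 (SE; adjusted p = 0.000115). On the other side FUCA1, a lysosomal fucosidase, had 153, 141 and 56 CPM in OCI-AML3 with OTX015, against 75.9, 101 and 77.9 CPM in OCI-AML2 with OTX015. FUCA1 with vehicle had 1.17, 3.46 and 5.67 CPM in OCI-AML3, against 22.8, 24.4 and 20.4 CPM in OCI-AML2, the OCI-AML3 libraries all being lower. It rose in both lines, by 5.34 in OCI-AML3 and 1.90 in OCI-AML2. FOXP1, a forkhead factor, had 85.2, 74.5 and 94.8 CPM in OCI-AML3 with OTX015, against 88.7, 84.2 and 82.1 CPM in OCI-AML2 with OTX015, and with vehicle 15.2, 12.1 and 14.2 CPM in OCI-AML3, against 43.8, 64 and 35.8 CPM in OCI-AML2. The protein kinase A inhibitor PKIB, the cyclin relative CCNYL1 and the mitochondrial carrier UCP2 also lost an OCI-AML3 deficit, with line differences changed by 5.05, 2.29 and 1.95 on the log2 scale.

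At 80 genes the direction turned over, 47 to lower and 33 to higher in OCI-AML3 with OTX015. LSP1, an actin-binding leukocyte protein, had 6.55, 6.57 and 8.61 CPM in OCI-AML3 with OTX015, against 37.4, 29.99 and 21.1 CPM in OCI-AML2 with OTX015. LSP1 with vehicle had 131, 120.3 and 125 CPM in OCI-AML3, against 31.2, 39.1 and 26.8 CPM in OCI-AML2, and it fell by 4.14 on the log2 scale in OCI-AML3 (adjusted p = 3.22e-10) with no passing change in OCI-AML2. FCGR2A (CD32), a low-affinity Fc receptor, had 4.37, 5.48 and 2.15 CPM in OCI-AML3 with OTX015, against 21, 28.1 and 31.6 CPM in OCI-AML2 with OTX015, and with vehicle 58, 70.1 and 115 CPM in OCI-AML3, against 25.3, 34.7 and 19.2 CPM in OCI-AML2. MMP9, a gelatinase, had 14.2, 11 and 2.15 CPM in OCI-AML3 with OTX015, against 156, 147 and 118 CPM in OCI-AML2 with OTX015. MMP9 with vehicle had 91.5, 94.3 and 8.51 CPM in OCI-AML3, against 4.21, 11.4 and 25.6 CPM in OCI-AML2, where OCI-AML3 library 3 was the lowest of its group and the groups overlapped, and the line difference changed by -6.23 ± 0.75 (SE; adjusted p = 6.27e-06).

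Part of the metallothioneins, small zinc-binding proteins, were also lower with OTX015 and higher with vehicle. MT1F had 3.28, 2.19 and 0 CPM in OCI-AML3 with OTX015, against 10.5, 18.4 and 21.1 CPM in OCI-AML2 with OTX015, and with vehicle 121, 161 and 116 CPM in OCI-AML3, against 34.5, 25.5 and 28.1 CPM in OCI-AML2. All 6 metallothionein genes tested were higher in OCI-AML3 with vehicle and 3 were lower with OTX015, with 4 line differences moved to the OCI-AML2 side. All 6 fell with OTX015 in OCI-AML3 and 2 fell in OCI-AML2. With OTX015 2 of the 6 were lower without overlap of the libraries. With JQ1 0 were called lower and 1 higher. MT2A lost its call without OCI-AML2 library 3 with OTX015 (log2 fold change -1.37, edgeR adjusted p = 0.0693). EMP3, a membrane protein, had 198, 221 and 215 CPM in OCI-AML3 with OTX015, against 467, 548 and 421 CPM in OCI-AML2 with OTX015, with a line difference changed by -2.38 ± 0.34 (SE; adjusted p = 4.52e-05). In the other direction the translation regulator BZW2 had 99.4, 97.5 and 86.1 CPM in OCI-AML3 with OTX015, against 47.9, 46.4 and 46.3 CPM in OCI-AML2 with OTX015, and with vehicle 70.9, 76.1 and 80.8 CPM in OCI-AML3, against 138, 154 and 147 CPM in OCI-AML2. The ubiquitin ligase RNF144A had 33.9, 40.5 and 68.9 CPM in OCI-AML3 with OTX015, against 19.8, 14.5 and 4.21 CPM in OCI-AML2 with OTX015, with a line difference changed by 4.40 ± 0.67 (SE; adjusted p = 9.92e-05). XAGE1A, a cancer-testis antigen gene with near-identical copies, was lower with OTX015 (-2.82) and higher with vehicle (1.56).

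**Figure D4:**
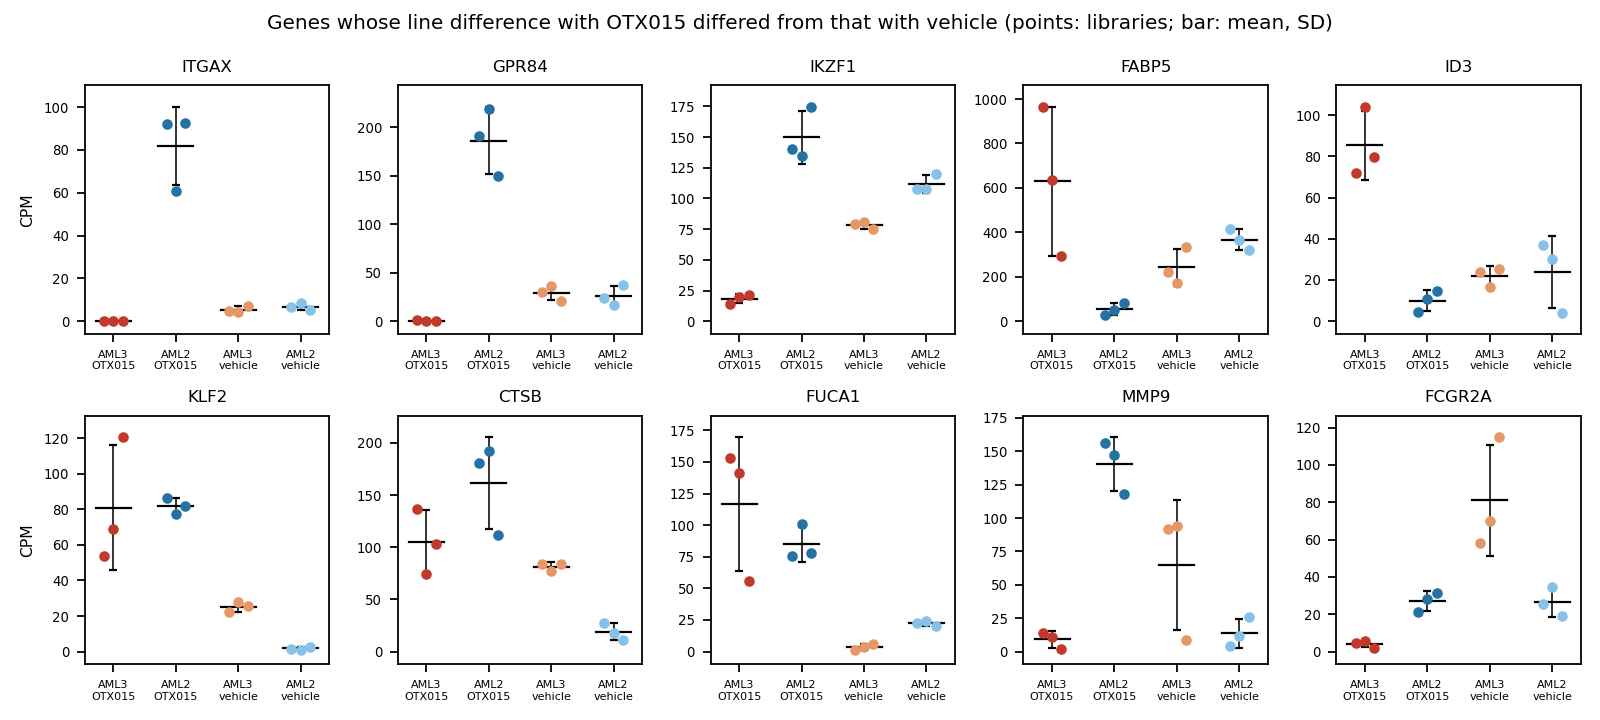
Normalised CPM (y axis, linear, own scale per panel) of 10 genes whose line difference changed between treatments, in each library of OCI-AML3 with OTX015, OCI-AML2 with OTX015, OCI-AML3 with vehicle and OCI-AML2 with vehicle. Bars give the mean and SD of 3 libraries. With OTX015 ITGAX and GPR84 separate to the OCI-AML2 side, IKZF1 separates further to that side, and FABP5 and ID3 separate to the OCI-AML3 side. KLF2, CTSB and FUCA1 come together, and MMP9 and FCGR2A turn over.

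MYC had 68.8, 99.7 and 60.3 CPM in OCI-AML3 with OTX015, against 50.2, 41.6 and 59 CPM in OCI-AML2 with OTX015. MYC with vehicle had 182, 209 and 183 CPM in OCI-AML3, against 406, 447 and 464 CPM in OCI-AML2. OCI-AML3 was lower with vehicle (log2 fold change -1.20 ± 0.22 (SE; adjusted p = 0.000168)) and higher with OTX015 (0.65 ± 0.26 (SE; adjusted p = 0.049)). MYC fell by 1.31 on the log2 scale in OCI-AML3 and fell by 3.15 in OCI-AML2. The change in line difference was 1.84 ± 0.34 (SE; adjusted p = 0.000737). The call of MYC with OTX015 was lost without library 1 or 2 of either line, where only the 2 groups were fitted and with no filter on low counts, while its direction held. Of 51 MYC target and nucleolar genes tested, 4 were lower and 2 higher with OTX015, against 15 lower and 0 higher with vehicle. All genes tested gave 18.2% lower and 18.9% higher with OTX015, and 11.7% and 11.4% with vehicle.

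Among the drug targets BRD3 had 53.5, 46 and 25.8 CPM in OCI-AML3 with OTX015, against 86.4, 87.1 and 71.6 CPM in OCI-AML2 with OTX015, lower in OCI-AML3 with a log2 fold change of -0.92 ± 0.23 (SE; adjusted p = 0.00226). BRD2 had 48.1, 53.7 and 77.5 CPM in OCI-AML3 with OTX015, against 38.5, 33.9 and 80.01 CPM in OCI-AML2 with OTX015 and did not pass. HEXIM1, an inhibitor of the elongation kinase P-TEFb that BET inhibitors are known to raise, had 283, 269 and 678 CPM in OCI-AML3 with OTX015, against 205, 230.2 and 526 CPM in OCI-AML2 with OTX015. It did not pass between the lines (log2 fold change 0.36 ± 0.41 (SE; adjusted p = 0.522)), and it rose in each line, by 4.69 in OCI-AML3 and by 4.25 in OCI-AML2. SERPINI1 had 26.2, 26.3 and 25.8 CPM in OCI-AML3 with OTX015, against 18.7, 27.1 and 33.7 CPM in OCI-AML2 with OTX015, with overlap. AFF3, a scaffold of the super elongation complex family, had 0, 1.1 and 2.15 CPM in OCI-AML3 with OTX015, against 128, 109 and 149 CPM in OCI-AML2 with OTX015. AFF3 with vehicle had 50.4, 38.1 and 42.5 CPM in OCI-AML3, against 86, 106 and 79.2 CPM in OCI-AML2, and it fell by 5.46 on the log2 scale in OCI-AML3 (adjusted p = 5.95e-09).

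NPM1 had 819, 965 and 351 CPM in OCI-AML3 with OTX015, against 1006, 1204 and 958 CPM in OCI-AML2 with OTX015, and these overlapped, with a log2 fold change of -0.57 ± 0.36 (SE; adjusted p = 0.223). NPM3 had 30.6, 16.4 and 10.8 CPM in OCI-AML3 with OTX015, against 15.2, 18.4 and 8.42 CPM in OCI-AML2 with OTX015 and did not pass. MYB had 43.7, 40.5 and 64.6 CPM in OCI-AML3 with OTX015, against 61.9, 66.8 and 128 CPM in OCI-AML2 with OTX015 and missed the threshold, with a log2 fold change of -0.78 ± 0.31 (SE; adjusted p = 0.0507). MYB passed without OCI-AML2 library 1 or 2, without OCI-AML3 library 3 and with no filter on low counts. BCL2, the survival protein, had 17.5, 8.76 and 17.2 CPM in OCI-AML3 with OTX015, against 25.7, 20.3 and 40.004 CPM in OCI-AML2 with OTX015, lower in OCI-AML3 with a log2 fold change of -0.93 ± 0.36 (SE; adjusted p = 0.0416), and the call was lost by DESeq2, where only the 2 groups were fitted, in libraries 1 and 2, and without OCI-AML2 library 1 or 3 or OCI-AML3 library 2. Its relative BCL2A1 had 3.28, 4.38 and 0 CPM in OCI-AML3 with OTX015, against 39.7, 61.9 and 77.9 CPM in OCI-AML2 with OTX015, with a line difference changed by -3.90 ± 0.90 (SE; adjusted p = 0.00601). BCL2L11 (BIM), which promotes apoptosis, had 96.1, 74.5 and 84 CPM in OCI-AML3 with OTX015, against 30.4, 29 and 16.8 CPM in OCI-AML2 with OTX015, with a log2 fold change of 1.67 ± 0.33 (SE; adjusted p = 0.000268). MALAT1 did not pass between the lines, with a log2 fold change of 0.96 ± 0.46 (SE; adjusted p = 0.102), and passed by DESeq2 and in libraries 1 and 2 alone.

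The sprouty gene SPRY4 had 356, 362 and 286 CPM in OCI-AML3 with OTX015, against 35, 18.4 and 42.1 CPM in OCI-AML2 with OTX015. The related SPRED1 had 50.2, 38.3 and 21.5 CPM in OCI-AML3 with OTX015, against 3.5, 0.967 and 0 CPM in OCI-AML2 with OTX015. The phosphatase DUSP6 had 52.4, 51.5 and 34.5 CPM in OCI-AML3 with OTX015, against 524, 348 and 333 CPM in OCI-AML2 with OTX015, the reverse direction, with a log2 fold change of -3.09 ± 0.26 (SE; adjusted p = 6.75e-10). All 3 differences were also called with vehicle, and none changed between treatments past the threshold. BTG2, an antiproliferative gene, had 43.7, 46 and 103 CPM in OCI-AML3 with OTX015, against 305, 258 and 587 CPM in OCI-AML2 with OTX015, with a line difference changed by -2.93 ± 0.79 (SE; adjusted p = 0.0198). Of 24 AP-1 and immediate early genes 5 were higher and 6 lower in OCI-AML3 with OTX015, and 22 rose with OTX015 in each line. Without OCI-AML2 library 3, 8 rather than 5 were higher. The shares higher and lower were near those of all genes tested, 18.9% and 18.2%. Of all genes tested 28.8% rose with OTX015 in OCI-AML3 and 20.5% in OCI-AML2.

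At promoters 4592 of 12867 tested (35.7%) differed with OTX015, 2371 higher (18.4%) and 2221 lower (17.3%) in OCI-AML3, and the line difference of 810 (6.3%) differed from that with vehicle. Promoters were matched to genes where the counts of neighbouring promoters summed to the gene's count in every library. The 6 highest promoters belonged to H1F0, HOXB-AS3, UNCX, HIST3H2A, HOXB3 and RND3, and the 6 lowest included PITX1, HIST1H2BB, CD69 and SNURF. The other two had no matched gene: the promoter at chr6:45296048-45296082 (hg19, plus strand) had 0 CPM in every library of OCI-AML3 with OTX015, against 571, 764 and 619.9 CPM in OCI-AML2 with OTX015, and that at chr2:54053026-54053030 (hg19, plus strand) had 0 CPM in every library of OCI-AML3 with OTX015, against 698, 597 and 183 CPM in OCI-AML2 with OTX015. UNCX's main promoter at chr7:1272522-1272537 (hg19) had 339, 356 and 289 CPM in OCI-AML3 with OTX015, against 0 CPM in every library of OCI-AML2 with OTX015.

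Among 1916 genes with at least 2 tested promoters, 35 (1.83%) had promoters called in opposite directions with OTX015, and 7 of the 35 were called as a gene. With vehicle 18 genes did, 4 of them shared with OTX015, and with JQ1 45 did, 20 of them shared with OTX015. The count was 23 by DESeq2, 11 where only the 2 groups were fitted, 57 in libraries 1 and 2, and 19 to 39 with a library left out. The 5 genes with the smallest larger p-value of the opposite pair were EIF4A3, STARD3NL, SENP6, MCM7 and HMGB1, named after their values were seen. RASSF1 was added for the change in its main promoter.

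EIF4A3, an RNA helicase of the exon junction complex, used starts 20 bases apart. The start at chr17:78120917-78120934 (hg19) had 192, 236 and 256 CPM in OCI-AML3 with OTX015, against 48.3, 64.4 and 107 CPM in OCI-AML2 with OTX015. The start at chr17:78120897-78120913 had 25.6, 22.4 and 15.6 CPM in OCI-AML3 with OTX015, against 74.2, 81 and 98 CPM in OCI-AML2 with OTX015, the reverse direction. The first took 76.4, 76.6 and 84.6% of EIF4A3 tags in OCI-AML3 with OTX015, against 34.7, 38.6 and 48.1% in OCI-AML2 with OTX015. A like split was present with vehicle, with 58.4, 57.9 and 60.7% in OCI-AML3, against 22.0, 24.2 and 23.3% in OCI-AML2. STARD3NL likewise kept its split in both treatments.

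MCM7, a helicase subunit, showed a split with OTX015 and not with vehicle. The upstream promoter at chr7:99698956-99699038 (hg19, minus strand) had 18.9, 25.8 and 19.997 CPM in OCI-AML3 with OTX015, against 61.2, 60.5 and 40.5 CPM in OCI-AML2 with OTX015, and with vehicle 152, 163 and 142 CPM in OCI-AML3, against 138, 114 and 189 CPM in OCI-AML2. It was lower in OCI-AML3 with a log2 fold change of -1.34 ± 0.31 (SE; adjusted p = 0.0014), and the line difference changed by -1.40 ± 0.39 (SE; adjusted p = 0.0282). The downstream promoter at chr7:99698137-99698170 had 23.4, 16.8 and 19.997 CPM in OCI-AML3 with OTX015, against 5.89, 3.9 and 2.13 CPM in OCI-AML2 with OTX015, higher in OCI-AML3 with a log2 fold change of 2.21 ± 0.52 (SE; adjusted p = 0.00151). It took 32.8, 25.4 and 25.7% of MCM7 tags in OCI-AML3 with OTX015, against 7.69, 5.06 and 3.45% in OCI-AML2 with OTX015 and at most 1.12% in any vehicle library. MCM7 as a gene did not differ past the threshold.

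RASSF1, a RAS-association scaffold and tumour suppressor, was low at its upstream start in OCI-AML3 with OTX015. The promoter at chr3:50378235-50378286 (hg19, minus strand) had 1.11, 3.36 and 2.22 CPM in OCI-AML3 with OTX015, against 53, 50.7 and 38.3 CPM in OCI-AML2 with OTX015. RASSF1 at that promoter with vehicle had 25.2, 29.2 and 18.6 CPM in OCI-AML3, against 26.1, 28.6 and 13.1 CPM in OCI-AML2, with overlap, and the line difference changed by -4.42 ± 0.64 (SE; adjusted p = 5.81e-05). The downstream promoter at chr3:50374779-50374859 had 10.03, 5.61 and 11.1 CPM in OCI-AML3 with OTX015, against 1.18, 0.975 and 2.13 CPM in OCI-AML2 with OTX015, higher in OCI-AML3 (adjusted p = 0.0118) at a level of few tags. The SENP6 promoter at chr6:76330355-76330365 had 0, 1.12 and 0 CPM in OCI-AML3 with OTX015, against 42.4, 20.5 and 2.13 CPM in OCI-AML2 with OTX015, and library 3 was the lowest of OCI-AML2.

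**Figure D5:**
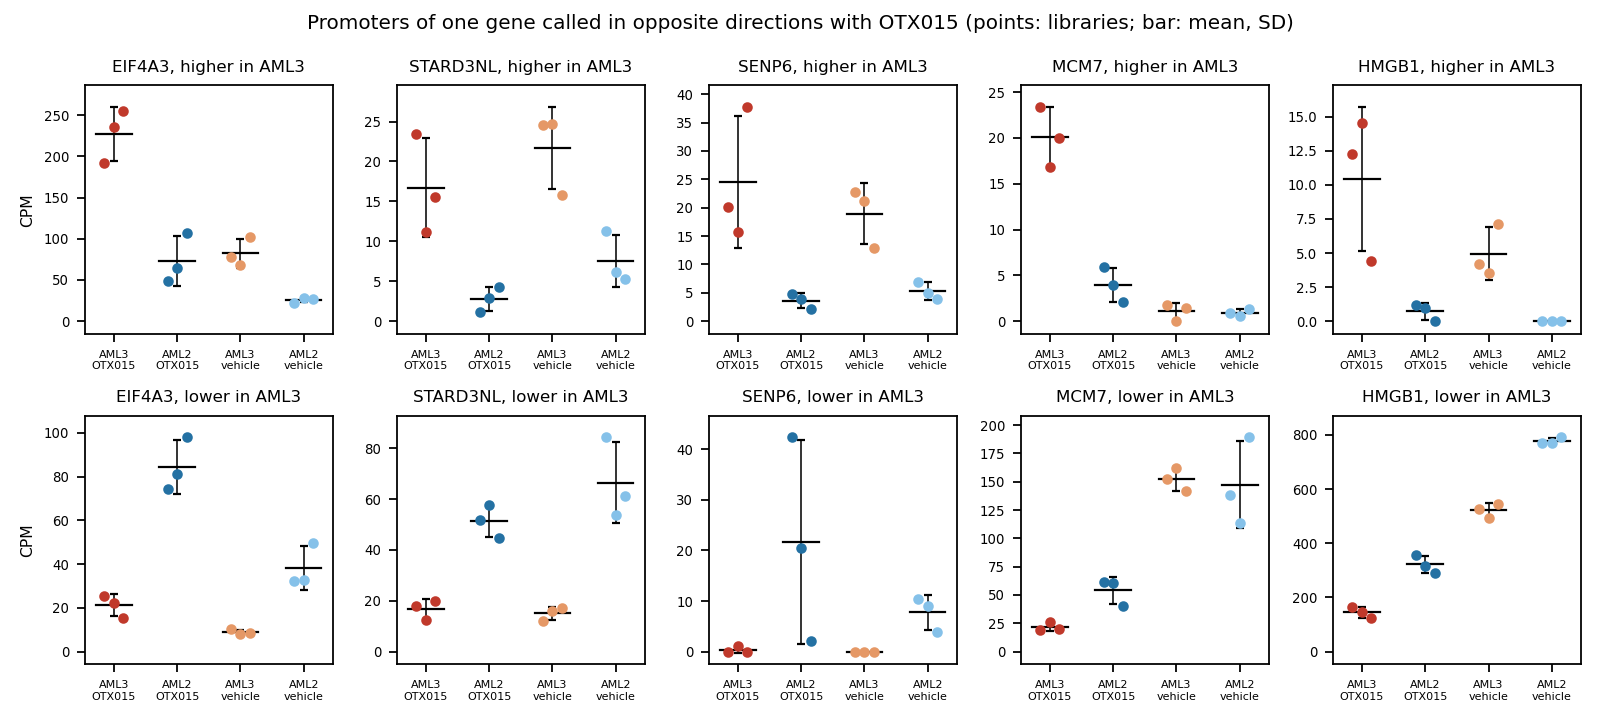
Normalised CPM (y axis, linear, own scale per panel) of the promoter called higher in OCI-AML3 with OTX015 (upper row) and the promoter called lower (lower row) of 5 genes, in each library of OCI-AML3 with OTX015, OCI-AML2 with OTX015, OCI-AML3 with vehicle and OCI-AML2 with vehicle. Bars give the mean and SD of 3 libraries. The EIF4A3 and STARD3NL pairs differ in both treatments, and the upper MCM7 promoter is near 0 with vehicle.

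At enhancers 235 of 849 tested (27.7%) differed with OTX015, 174 higher (20.5%) and 61 lower (7.18%) in OCI-AML3. The median log2 fold change over all enhancers tested was 0.79 with OTX015 and 0.095 with vehicle. The size of this excess depended on the scaling: with library sizes and TMM factors of the enhancer table itself, 97 were higher and 86 lower. Enhancer tags came to 0.88 to 1.42% of promoter tags in OCI-AML3 with OTX015, against 0.484 to 0.64% in OCI-AML2 with OTX015. With vehicle 107 enhancers (12.6%) differed, and 34 were higher and 24 lower in both treatments, with 0 in opposite directions.

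The enhancers with the widest differences were on in one line. In OCI-AML3 they included a group near BAHCC1, itself among the 12 highest genes. The enhancer at chr17:81397335-81397793 lies inside BAHCC1, 2089 bases from its start, and had 30.1, 31.4 and 6.67 CPM in OCI-AML3 with OTX015, against 0 CPM in every library of OCI-AML2 with OTX015. A further one at chr17:81387147-81387524, 80 bases from the start of the non-coding RNA AC110285.5, had 73.5, 66.2 and 82.2 CPM in OCI-AML3 with OTX015, against 0 CPM in every library of OCI-AML2 with OTX015. At chr17:79368790-79369424 (hg19) an enhancer had 178, 201 and 147 CPM in OCI-AML3 with OTX015, against 0 CPM in every library of OCI-AML2 with OTX015. The values were all 0 in OCI-AML2, at least 20.2-fold to 141-fold higher in OCI-AML3. A pair at chr7:25855034-25855326 and chr7:25856944-25857461, 94223 and 92201 bases from the nearest start, had no tag in OCI-AML2 with OTX015.

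In OCI-AML2 the enhancer at chr19:8500051-8500446, inside the myeloid adaptor gene PRAM1 and 2386 bases from its start, had 0 CPM in every library of OCI-AML3 with OTX015, against 95.4, 74.1 and 136 CPM in OCI-AML2 with OTX015. With vehicle this enhancer had 2.4, 3.53 and 1.43 CPM in OCI-AML3, against 30.5, 33.1 and 23.5 CPM in OCI-AML2, and the line difference changed with an adjusted p of 0.021. A second enhancer at chr19:8576584-8576951, 666 bases from the start of the myosin gene MYO1F, had 1.11, 0 and 0 CPM in OCI-AML3 with OTX015, against 20.02, 24.4 and 40.5 CPM in OCI-AML2 with OTX015, and with vehicle 1.2, 1.77 and 2.86 CPM in OCI-AML3, against 0, 2.24 and 1.31 CPM in OCI-AML2. The line difference of MYO1F's enhancer changed by -5.92 ± 1.41 (SE; adjusted p = 0.021). PRAM1 and MYO1F as genes were also lower in OCI-AML3 with OTX015 (log2 fold changes -3.75 and -2.29). The third enhancer with a changed line difference, at chr16:2955389-2955781 (hg19), had 23.4, 29.2 and 33.3 CPM in OCI-AML3 with OTX015, against 3.53, 1.95 and 4.26 CPM in OCI-AML2 with OTX015, and with vehicle 2.4, 3.53 and 2.86 CPM in OCI-AML3, against 5.22, 5.05 and 0 CPM in OCI-AML2. These were the only 3 of 849 (0.353%), and DESeq2 and a filter of at least 1 tag in at least 3 libraries gave 0. So did leaving out OCI-AML3 library 1 or 2 with vehicle or OCI-AML3 library 2 with OTX015. With library sizes and TMM factors of the enhancer table itself, 3 line differences moved to the OCI-AML2 side and 0 to the OCI-AML3 side, so the chromosome 16 enhancer lost its call. An enhancer at chr2:60554420-60555705, 92 bases from the start of the zinc finger gene BCL11A, had 0 CPM in every library of OCI-AML3 with OTX015, against 34.2, 21.5 and 8.52 CPM in OCI-AML2 with OTX015.

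Nearest genes were looked up only for enhancers named without a build, read as GRCh38, and not for those named in hg19. Of 111 such called enhancers whose nearest start belonged to a tested gene, 79 were higher and 32 lower in OCI-AML3. Of the 79, the nearest gene was called higher for 43 and lower for 5. Of the 32, the nearest gene was called lower for 25 and higher for 1. These shares stood against 18.9% and 18.2% of all genes tested, and an enhancer close to a start can share tags with that gene's promoter.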

How the data were processed

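The authors deposited CAGE tag counts per gene symbol, promoter and enhancer for 18 libraries of total RNA, and the values are raw counts. STAR and hg38 are named in the submitters' processing notes, without role or version. Promoter names carry hg19 positions for 41307 of 42133 promoters and hg38 for 826. Of 3863 enhancers, 674 are named in hg19, and the other 3189 name no build and were read as hg38, since 37.44% lay within 2000 bases of a GRCh38 start, against 22.33% after a shift by 50000 bases. Gene coordinates are from GENCODE 29, found for 13539 of 14079 symbols.

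Groups were taken from the sample titles. Counts were fitted with edgeR 4.0.16 (R 4.3.3; quasi-likelihood, TMM scaling, filterByExpr) over all 18 libraries with 1 mean per group, so that the spread is shared. Enhancers needed at least 3 tags in at least 3 libraries and used the promoter table's library sizes and factors. P-values were adjusted over all features of a table by Benjamini-Hochberg, with a threshold of 0.05. CPM values are TMM-scaled. Where a group had 0 tags, the fold is a lower bound against 3 tags over the group, and with 1 to 3 tags it is a ratio with its 95% counting interval. Floors and intervals cover counting error only. The tests were checked on simulated counts. DESeq2 1.42.0 and the other alternatives are in the closing section.

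Named genes were the 12 highest and 12 lowest past the threshold without overlap and with at least 10 CPM, the leading genes whose line difference was gained (6 each way), lost (5 each way) or turned (up to 8), up to 3 members per list and a fixed set including MYC, BRD2, BRD3 and HEXIM1. Some named genes are not reported here. Members named beyond this rule were chosen after their values were seen. The members and lists were chosen with earlier results of these data known, so no list count is independent evidence.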

Additional observations from a re-analysis of the deposited data

Results flagged for a closer look

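For the genes and enhancers described by name or by list rule, the difference between the lines with OTX015 was tested against the difference with vehicle, and those past an adjusted p of 0.05 (edgeR quasi-likelihood test, adjusted over all features tested) are given here as the change in log2 fold change, OTX015 minus vehicle. A negative value moved to the OCI-AML2 side and a positive one to the OCI-AML3 side. No group had more than 3 libraries, so single libraries were not tested as outliers.

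The line difference moved to the OCI-AML2 side at ITGAX (-8.77), GPR84 (-8.67), CTSG (-6.71), MMP9 (-6.23), AFF3 (-5.94), FGR (-5.8), CD82 (-5.7), SOCS2 (-5.67) and GP1BB (-5.65). The same direction held at MT1F (-5.01), MT2A (-4.42), XAGE1A (-4.39), S100A9 (-4.19), FCGR2A (-4.08), TYROBP (-4.03), LSP1 (-4.01), KLF2 (-3.95) and BCL2A1 (-3.9). Next in size were the moves to the OCI-AML2 side at PECAM1 (-3.87), IL17RA (-3.86), CORO1A (-3.71), MT1E (-3.37), TNFAIP3 (-3.02), NFKBIA (-3.02), BTG2 (-2.93), PLAUR (-2.83) and SRGN (-2.73). Further moves to that side were those of CTSB (-2.7), CDKN2A (-2.67), IKZF1 (-2.53), ACSL1 (-2.4), RAB8B (-2.4), FLT3 (-2.38), EMP3 (-2.38), MCM2 (-2.34) and FERMT3 (-2.29). Smaller moves were at SPC25 (-2.14), PRKCB (-2.1), CENPA (-2.08), CCND3 (-2.03), UBE2C (-1.95), RUNX2 (-1.91), CD74 (-1.91), SPI1 (-1.79) and RRM2 (-1.76). The list continued with ITGAL (-1.74), ACAT2 (-1.68), IFI6 (-1.53), MCM3 (-1.4), IDH2 (-1.05) and BRD3 (-1).

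The line difference moved to the OCI-AML3 side at PKIB (5.05), RNF144A (4.4), FABP5 (4.21), FUCA1 (3.44), ID3 (3.41), HMGCS1 (2.83), ATP8B4 (2.81), CCNYL1 (2.29) and SLC39A8 (2.2). Also on that side were BZW2 (1.97), UCP2 (1.95), CZ1P-ASNS (1.89), MYC (1.84), FOXP1 (1.79), SOX4 (1.78) and EAF2 (1.32). FGR, ITGAX and SOCS2 had no tag in one of the groups, so their fitted changes depend on the prior count and are no measure of size.

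Among enhancers the change was -6.11 at chr19:8500051-8500446, where OCI-AML3 with OTX015 had no tag, -5.92 at chr19:8576584-8576951 and 3.6 at chr16:2955389-2955781 (hg19).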

How the results depend on the processing

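The number of genes called with OTX015 was 3721, and it was 3311 by DESeq2, 3730 with DESeq2-type size factors (RLE) and 2767 to 3770 with a library left out. Counts with a library left out were 1738 to 2112 with vehicle, 2893 to 3706 with JQ1, 552 to 820 for the change in line difference and 1077 to 1353 for genes called in the same direction with both. For the OTX015-against-JQ1 difference they were 0 throughout. In libraries 1 and 2 alone the change in line difference was called at 1410 genes and 1512 promoters, against 767 and 810. With a library left out promoters gave 3479 to 4768 calls with OTX015 and 533 to 834 for the change in line difference.

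Enhancer calls with OTX015 were 84 with the gene-type filter on low counts, 122 by DESeq2 and 146 to 219 with a library left out, against 235. Changed line differences at enhancers numbered 0 with at least 1 tag in at least 3 libraries, 0 by DESeq2, 16 in libraries 1 and 2, and 0 to 4 with a library left out, against 3. Genes with promoters in opposite directions numbered 23 by DESeq2, 11 where only the 2 groups were fitted, 57 in libraries 1 and 2, and 19 to 39 with a library left out. The cause of these moves was not tested.

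Of the settings tried for the named genes, 1661 kept direction and side of the threshold, 28 lost the call, 7 gained one and 3 turned the direction. The last were HEXIM1 at -0.192 without OCI-AML3 library 3, NPM3 at -0.0645 without OCI-AML3 library 1 and SERPINI1 at -0.188 without OCI-AML2 library 1, none of them called, and with a library left out these genes ranged from -0.192 to 0.886, -0.0645 to 0.691 and -0.188 to 0.168. Ribosomal protein genes called lower with OTX015 numbered 11 of 79 tested, a share below the 18.2% of all genes tested, and 0 were called higher. Their median log2 fold change was -0.78, against 0.034 over all genes tested. In 38 of the 79 every OCI-AML3 library was below every OCI-AML2 library, against 2324 of all 10031 genes tested. The ribosomal protein genes called lower numbered 2 without OCI-AML2 library 2, 3 without OCI-AML3 library 3 and 41 in libraries 1 and 2.

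The labels number the libraries 1 to 3 in each group without saying that a number marks a shared day. Deviations of same-numbered libraries from their group means correlated at 0.069, 0.138 and 0.210 between OCI-AML3 and OCI-AML2 with OTX015, and at -0.024, 0.045 and 0.057 with vehicle. OCI-AML3 library 1 with OTX015 correlated best with OCI-AML2 library 2. With OTX015 the libraries numbered 3 correlated at -0.085 to -0.191 with numbers 1 and 2 of the other line. With JQ1 the libraries numbered 3 of the lines correlated at 0.224. The main fit treated the libraries as sharing only a number, and whether those numbered 3 share a source was not tested. With the replicate number as a block the calls were 4153 genes with OTX015, 2749 with vehicle, 4223 with JQ1, 1115 for the change in line difference, 1622 shared, 5128 and 1199 promoters, 239 and 4 enhancers, and 44 genes with opposite promoters. MYB passed with the block (log2 fold change -0.74, adjusted p = 0.0177). Depth limits low features, since a count of 0 allowed several CPM in the smallest libraries.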
